A study of Mus musculus with 4 samples.

Results

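The 5 genes of the thrombospondin family, *Thbs1*, *Thbs2*, *Thbs3*, *Thbs4* and *Comp*, were followed in 4 libraries of total RNA from mouse periosteal cells. They were found by gene symbol among the 45802 symbols of the deposited table. All 5 had a value in each library, as did 14415 genes in all. The family was chosen on its log2 differences between the 2 cell populations, over all libraries and within each pair of equal number, so that those differences are given here as descriptions without a test.

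Both populations came from male Pdgfrα-mTmG mice, in which tamoxifen-dependent Cre driven by the *Pdgfra* promoter (Pdgfra-CreERTM) switches a cell from membrane tdTomato to membrane GFP. Tamoxifen was given at 150 mg/kg per day for 5 days from the age of 2 months, and hindlimb cells were taken 14 days after the last dose, from mice of 9 to 10 weeks. The cells were grown for 1 passage with 10 ng/mL bFGF, and those negative for CD31, CD45 and Ter119 were sorted into PDGFRα reporter+ cells (GFP) and PDGFRα reporter- cells (tdTomato), with 2 libraries of each. Each population was pooled from 3 to 6 mice per the sample labels, whereas the study's methods give a higher range. No untreated animals or fresh cells are among the libraries. The column headings number the libraries 2 and 3 in both populations, whereas the labels number replicates 1 and 2. Libraries are therefore called by population and heading number, and what the number stands for is not written in the sources used here.

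Values are log2 expression values that had been quantile normalized, a scaling that gives each library the same distribution. Between 15423 and 15605 genes had a value in a library. The unit under the logarithm was not given in the sources used here, so that it is not known whether values are per transcript length and levels are compared between libraries, not between genes. Read depth is unknown as well. In bulk RNA, fewer cells of a type and less RNA per cell cannot be told apart. Of 7 markers of periosteal stroma, all had a value in each library and 6 had lower means in PDGFRα reporter+ cells. Of these, 1 did not overlap between the populations (8.1% of all genes were lower without overlap). *Pdgfra* had log2 values of 7.44 to 7.87 and *Col1a1* of 7.44 to 7.85. *Postn* of the periosteal matrix protein periostin had -1.13 and 0.14 in the libraries numbered 2, PDGFRα reporter+ first, beside a library median of 1.48. In the libraries numbered 3 it had 2.04 and 3.04. The log2 difference of *Pdgfra* itself, PDGFRα reporter+ minus PDGFRα reporter-, was -0.08 in number 2 and 0.18 in number 3.

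Thrombospondins are secreted, calcium-binding matricellular proteins, which tune the contact between cells and matrix more than they build the matrix. Thrombospondin-1 and -2 assemble as trimers and carry type 1 repeats, through which they bind the receptor CD36 and restrain the growth of vessels, and thrombospondin-1 can also activate latent TGF-β. Thrombospondin-3, thrombospondin-4 and cartilage oligomeric matrix protein (COMP, thrombospondin-5) assemble as pentamers without type 1 repeats. COMP is known from cartilage and tendon, where it binds collagens, and thrombospondin-4 from tendon and muscle.

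*Thbs1* had lower values in PDGFRα reporter+ cells, and *Comp* had higher ones. *Thbs2* differed little between the populations. *Thbs3* and *Thbs4* differed more between the library numbers than between the populations, and in opposite directions. Within both numbers, *Thbs3*, *Thbs4* and *Comp* had higher values in PDGFRα reporter+ cells, as did 3182 (22.1%) of all genes, and *Thbs1* had lower values, as did 3571 (24.8%).

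**Figure D1:**
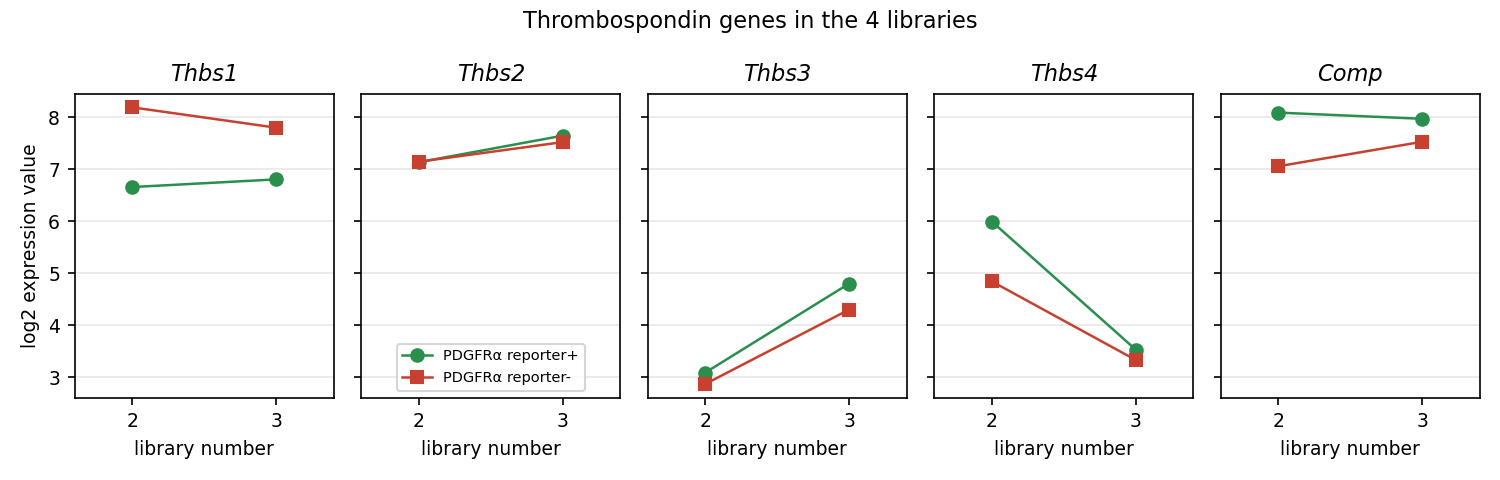
Log2 expression values (y axis) of the 5 thrombospondin genes against library number (x axis); each point is 1 library, and lines join the libraries of 1 population. *Thbs1* and *Comp* separate the populations, from -1.53 and 1.03 in number 2 to -0.99 and 0.44 in number 3, whereas *Thbs3* and *Thbs4* separate the numbers.

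*Thbs1* (chr2:118111876-118127133, plus strand, in GENCODE M21 on GRCm38) encodes thrombospondin-1. Its log2 values were 6.66 in PDGFRα reporter+ library 2, 6.80 in PDGFRα reporter+ library 3, 8.19 in PDGFRα reporter- library 2 and 7.80 in PDGFRα reporter- library 3. The PDGFRα reporter+ values were all below the PDGFRα reporter- values. The means were 6.73 ± 0.10 (SD, n = 2) and 7.99 ± 0.28 (SD, n = 2), a log2 difference of -1.26. On the linear scale, the level was 2.40-fold higher in PDGFRα reporter- cells, with 2.89-fold in number 2 and 1.99-fold in number 3. Of all genes, 1167 (8.1%) were lower in PDGFRα reporter+ cells with no overlap between the libraries of the populations. The lincRNA gene *Gm29233* overlaps *Thbs1* on the other strand and had no value in any library.

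*Comp* (chr8:70373558-70382066, plus strand) went the other way. Its log2 values were 8.09 and 7.97 in PDGFRα reporter+ libraries 2 and 3, and 7.06 and 7.53 in PDGFRα reporter- libraries 2 and 3. The lower of the PDGFRα reporter+ values exceeded the higher of the PDGFRα reporter- values, as for 1094 genes (7.59%). The means were 8.03 ± 0.08 (SD, n = 2) and 7.29 ± 0.33 (SD, n = 2), a log2 difference of 0.74 or 1.67-fold. The difference was smaller in number 3 (1.36-fold) than in number 2 (2.04-fold).

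The study also measured *Comp* by PCR in chondrogenic cultures, which are not among these libraries, and the place of its primers shows which part of the gene that assay reads. The forward primer lies across the junction of exons 14 and 15 (from position 70379557 to 70379685), and the reverse primer lies in exon 16 (from position 70380150 to 70380170). These are places in the *Comp* transcript of 19 exons, and the other *Comp* transcripts in the annotation did not match the primers. Both are in coding sequence, and the amplified stretch is 131 bases of the transcript with the primers included. The primers, 5′ to 3′, are
*Comp* forward: ggtggtgctcaatcagggaat
*Comp* reverse: catcatcagtggcggtgttta

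*Comp* and *Thbs1* are the members whose populations did not overlap, and their ratio describes both at once; its direction follows from that choice. The log2 value of *Comp* minus that of *Thbs1* was 1.43 and 1.16 in PDGFRα reporter+ libraries 2 and 3, and -1.13 and -0.27 in PDGFRα reporter- libraries 2 and 3. The ratio of *Comp* to *Thbs1* was on average 4.00-fold higher in PDGFRα reporter+ libraries. It differed by 2.56 on the log2 scale in number 2 and by 1.44 in number 3.

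*Thbs2* (chr17:14665500-14694235, minus strand) encodes thrombospondin-2, the closest relative of thrombospondin-1 in domain structure. Its log2 values were 7.13 and 7.64 in PDGFRα reporter+ libraries 2 and 3, and 7.14 and 7.52 in PDGFRα reporter- libraries 2 and 3. The means of 7.39 ± 0.36 and 7.33 ± 0.27 (SD, n = 2 each) overlapped, with a log2 difference of 0.06. The difference of *Thbs2* was smaller than the spread between the libraries of a population, whereas that of *Thbs1* was larger.

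*Thbs3* (chr3:89215180-89226837, plus strand) encodes thrombospondin-3. Its log2 values were 3.09 and 4.80 in PDGFRα reporter+ libraries 2 and 3, and 2.87 and 4.30 in PDGFRα reporter- libraries 2 and 3. Both libraries numbered 3 lay above both numbered 2, and the populations overlapped. The log2 difference between the populations was 0.36, with 0.22 in number 2 and 0.50 in number 3, beside SDs of 1.21 and 1.01 within the populations. Its sign turned when PDGFRα reporter+ library 3 (-0.50) or PDGFRα reporter- library 2 (-0.36) was left out. Leaving out PDGFRα reporter+ library 2 gave 1.22, and leaving out PDGFRα reporter- library 3 gave 1.07. Each omission leaves the numbers unequal between the populations, so that the difference between numbers enters these values, whereas both differences within a number had the same sign. The gene *Mtx1* of the mitochondrial import receptor metaxin-1 spans *Thbs3* on the opposite strand. The libraries were stranded, but whether strand was used in counting is not given in the sources used here. *Mtx1* had log2 values of 2.58 to 2.80, with a difference between the numbers of 0.17.

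*Thbs4* (chr13:92751590-92794818, minus strand) encodes thrombospondin-4. Its log2 values were 5.99 and 3.53 in PDGFRα reporter+ libraries 2 and 3, and 4.84 and 3.33 in PDGFRα reporter- libraries 2 and 3. Both libraries numbered 2 lay above both numbered 3. Between the populations the log2 difference was 0.68, which was larger in number 2 (1.15, or 2.22-fold, compared with 0.20, or 1.15-fold, in number 3). The SDs within the populations, 1.74 and 1.07, were larger. Leaving out PDGFRα reporter+ library 2 turned the difference to -0.56, and leaving out PDGFRα reporter- library 3 turned it to -0.08. It was 1.91 when PDGFRα reporter+ library 3 was dropped and 1.43 when PDGFRα reporter- library 2 was. As for *Thbs3*, the difference between numbers enters these values.

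The contrast between the numbers is another comparison than the one the family was chosen on, but it is made from the same 4 values, which were known when the family was chosen, so that its p-values are no independent evidence for the members. It was tested with limma, with a term for the population and Benjamini-Hochberg adjustment over the 14415 genes. At an adjusted p under 0.05, 3065 genes (21.3%) were called, of which 1654 (11.5%) were higher and 1411 (9.79%) lower in number 3. Of the thrombospondin genes, *Thbs3* and *Thbs2* were higher and *Thbs4* was lower in number 3, and *Thbs1* and *Comp* were not called. *Thbs3* was 2.97-fold higher in number 3, a log2 difference of 1.57 (SE 0.13, limma adjusted p = 8.8e-05), with 1.71 in the PDGFRα reporter+ pair and 1.43 in the other pair. *Thbs4* was 3.96-fold higher in number 2, a log2 difference of -1.99 (SE 0.20, limma adjusted p = 0.000249), with -2.46 and -1.51 in the populations. For *Thbs2* the difference was small, 0.44 (SE 0.14, limma adjusted p = 0.0487), with 0.51 and 0.38, and its limma adjusted p ran from 0.035 to 0.191 over the alternatives tried. *Thbs1* had -0.12 (SE 0.16, limma adjusted p = 0.642) and *Comp* 0.18 (SE 0.17, limma adjusted p = 0.513). With variances moderated towards a single value instead of a trend, no gene was called (3909 had an unadjusted p under 0.05) and the adjusted p was 0.0616 for *Thbs3* and 0.0845 for *Thbs4*. If libraries with the same number came from 1 culture, this test compares 2 cultures and its p-values measure only the spread between their libraries.

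The ratio of *Thbs4* to *Thbs3* was formed from the members that differed most between the numbers, in opposite directions, so that its direction follows from that choice. The log2 value of *Thbs4* minus that of *Thbs3* was 2.90 and 1.97 in the libraries numbered 2, PDGFRα reporter+ first, and -1.27 and -0.97 in those numbered 3. The ratio was on average 11.8-fold higher in number 2. In size, the difference of *Thbs4* between the numbers was reached or passed by 151 (1.48%) of the 10224 genes whose log2 values averaged 0 or more, and that of *Thbs3* by 270 (2.64%).

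**Figure D2:**
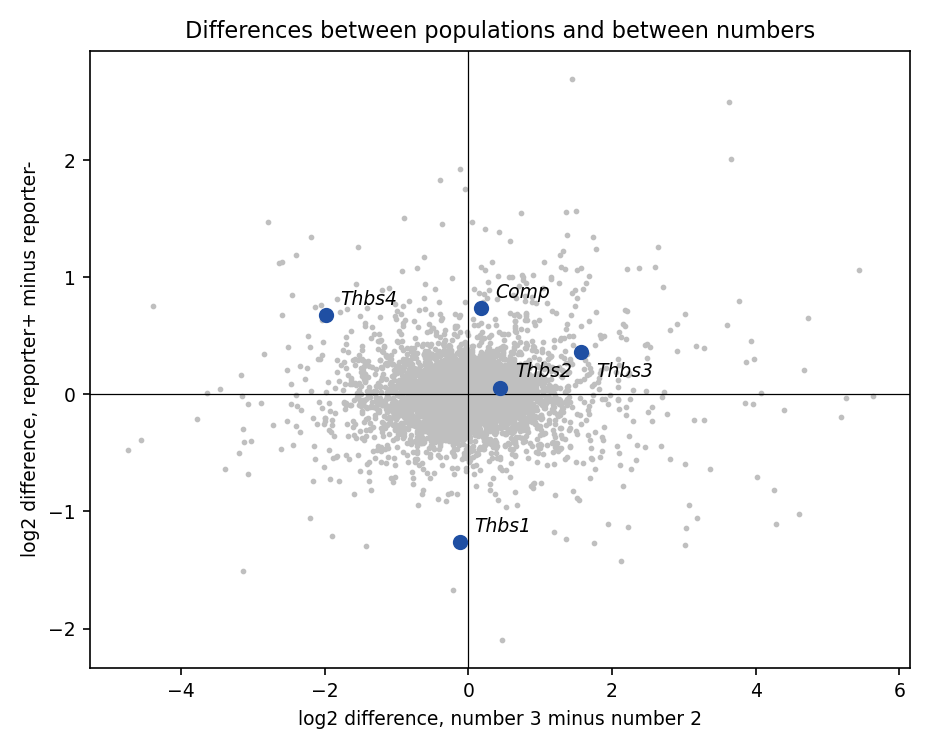
Each grey point is a gene whose log2 values averaged 0 or more, placed by its log2 difference between numbers (x axis, number 3 minus number 2) and between populations (y axis, PDGFRα reporter+ minus PDGFRα reporter-); blue points are the thrombospondin genes. *Thbs1* (-0.12 and -1.26) and *Comp* (0.18 and 0.74) lie along the population axis, *Thbs4* (-1.99 and 0.68) and *Thbs3* (1.57 and 0.36) mainly along the number axis, and *Thbs2* (0.44 and 0.06) near the centre.

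Because *Thbs3* and *Thbs4* moved apart, the sequence just before their starts is shown. That of *Thbs2* is set beside them, a gene that differed less than either of them between the numbers and between the populations. Promoters were taken from a table of RefSeq starts on GRCm38.p6, in which these 3 genes were matched and *Thbs1* and *Comp* were not. The 150 bases before each start are printed 5′ to 3′ on the strand of the gene, at chr17:14694263-14694412 for *Thbs2*, chr3:89215030-89215179 for *Thbs3* and chr13:92794819-92794968 for *Thbs4*. Capitals mark 3 common promoter motifs on either strand, namely the TATA box as TATAAA, the CCAAT box as its core letters and the GC box as GGGCGG, and no marked stretches overlap.
*Thbs2* promoter: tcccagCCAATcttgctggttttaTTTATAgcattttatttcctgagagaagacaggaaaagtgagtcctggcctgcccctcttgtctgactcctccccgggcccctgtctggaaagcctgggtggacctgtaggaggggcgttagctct
*Thbs3* promoter: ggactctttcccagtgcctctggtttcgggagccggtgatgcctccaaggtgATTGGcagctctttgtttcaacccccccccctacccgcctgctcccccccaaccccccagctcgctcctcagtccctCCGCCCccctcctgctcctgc
*Thbs4* promoter: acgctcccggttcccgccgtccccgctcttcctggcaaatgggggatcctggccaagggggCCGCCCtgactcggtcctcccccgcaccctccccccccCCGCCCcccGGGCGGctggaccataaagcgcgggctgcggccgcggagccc

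The *Thbs4* window held 3 copies of GGGCGG, the *Thbs3* window 1 copy of GGGCGG and 1 of CCAAT, and the *Thbs2* window 1 of TATAAA and 1 of CCAAT. Over 32851 windows of this length before RefSeq starts, TATAAA was in 7.57%, CCAAT in 24.5% and GGGCGG in 28.6%. The share of G and C was 77.3% for *Thbs4*, 66.7% for *Thbs3* and 53.3% for *Thbs2*, compared with a median of 54% over all windows. These are matches of letters only, counted wherever they lie in the window. The TATAAA match of *Thbs2* is on the opposite strand, near the end of the window that is farthest from the start.

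For each thrombospondin gene, the genes with the most similar pattern over the 4 libraries were sought among 10219 others averaging 0 or more. Likeness was the root mean square difference of the log2 values, each gene centred on its own mean, and is a description of 4 points. *Comp* was most like *Matn4* of the matrix protein matrilin-4 (0.070), *C1qc* of the complement component C1q (0.070) and the macrophage gene *Cd68* (0.071). *Thbs4* was most like *Tmem26* (0.061), *Crispld2* (0.075) and *Plce1* (0.169), and *Thbs3* like *Atp8b1* (0.108), *Fbln1* of the matrix protein fibulin-1 (0.108) and *Sema6d* (0.111). For *Thbs1* none came within 0.2, and the nearest were *Ccnd1* of cyclin D1 (0.238), *Ano3* (0.254) and *Pde8b* (0.294). *Thbs2* had 3550 genes within 0.2, led by *Map3k1* (0.005), *Sco2* (0.010) and *Hnrnpd* (0.013). That count goes with the small differences of *Thbs2* itself, since the measure is not scaled and nearly flat genes come close to each other.

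Markers of other cells were compared with these patterns. Macrophage markers went with *Comp*: *Lyz2*, *Cd68*, *Adgre1*, *Csf1r*, *Ptprc* and *Tyrobp*, 6 of 6, were higher in PDGFRα reporter+ cells within both numbers. Their summed linear level was 221 and 261 in the PDGFRα reporter+ libraries and 86.2 and 168 in the PDGFRα reporter- libraries, most of it *Lyz2*, and none was blank although CD45+ cells had been gated out. *Cd68* itself had log2 values of 2.87, 2.84, 1.77 and 2.22 in PDGFRα reporter+ libraries 2 and 3 and PDGFRα reporter- libraries 2 and 3. Its differences between the populations were 1.10 and 0.63 in the numbers, beside 1.03 and 0.44 for *Comp*. Between the numbers the 6 markers differed by 0.21 (*Cd68*) to 1.05 (*Adgre1*), and *Comp* by 0.18. The part of these cells in the values of *Comp* was not tested.

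Smooth muscle and endothelial markers, like *Thbs1*, had lower means in PDGFRα reporter+ cells. CD31+ cells had been gated out of both populations. All 5 smooth muscle markers (*Acta2*, *Actg2*, *Tagln*, *Cnn1*, *Myh11*) and all 5 endothelial markers (*Pecam1*, *Cdh5*, *Kdr*, *Tek*, *Emcn*) did so, and 2 and 4 of them did not overlap between the populations (8.1% of all genes were lower without overlap). Between the numbers *Thbs1* differed by -0.12, the smooth muscle markers by -0.09 (*Myh11*) to 1.75 (*Acta2*) and the endothelial markers by -0.17 (*Cdh5*) to 3.32 (*Tek*). The summed linear level of the smooth muscle markers was 6.35 and 25.7 in the PDGFRα reporter+ libraries, and 24.1 and 39.7 in the PDGFRα reporter- libraries. That of the endothelial markers was 0.232 and 1.17, compared with 1.05 and 3.69. Their part in the values of *Thbs1* was not tested. Platelets are rich in thrombospondin-1, and of their markers *Gp1ba* and *Gp9* were blank in all 4 libraries. *Pf4*, *Ppbp* and *Itga2b* had a summed level of 4.74 and 3.23 in PDGFRα reporter+ and 2.79 and 2.07 in PDGFRα reporter- libraries. *Pf4* was higher in PDGFRα reporter+ cells within both numbers (2.04 and 1.67), whereas *Ppbp* had -1.27 in number 2 and *Itga2b* had -0.40 in number 3. The part of platelets in the values of *Thbs1* was not tested.

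Tendon and cartilage markers differed between the numbers, as *Thbs4* did. The summed linear level of *Scx*, *Tnmd*, *Mkx* and *Fmod* was 51.3 and 42.9 in the libraries numbered 2, PDGFRα reporter+ first, and 5.26 and 5.85 in those numbered 3. Most of it in number 2 was *Fmod* of the collagen-binding fibromodulin, with log2 values of 5.49 and 5.06 in number 2 and -0.16 and 1.23 in number 3. The tendon transcription factor *Scx* was also higher in number 2, with a number 3 minus number 2 difference of -1.92. The tendon gene *Tnmd* went the other way on average (2.36), which rests on PDGFRα reporter+ library 2. Its log2 values were -6.02 and -1.18 in PDGFRα reporter+ libraries 2 and 3, and -1.82 and -1.94 in PDGFRα reporter- libraries 2 and 3. Of the cartilage markers, *Col2a1*, *Acan* and *Sox9* had number 3 minus number 2 differences of -3.14, -3.54 and -0.73. *Acan* had low values, and with a pseudocount of 1 its difference was -0.43. The markers *Matn3* and *Col9a1* were blank in PDGFRα reporter+ library 3. The summed cartilage level was 11.6 and 15.1 in number 2 and 2.88 and 5.17 in number 3. The part of such cells in the values of *Thbs4* was not tested. Both libraries numbered 3 were below both numbered 2 for *Thbs4*, *Fmod* and *Scx*, but not for *Comp*.

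**Figure D3:**
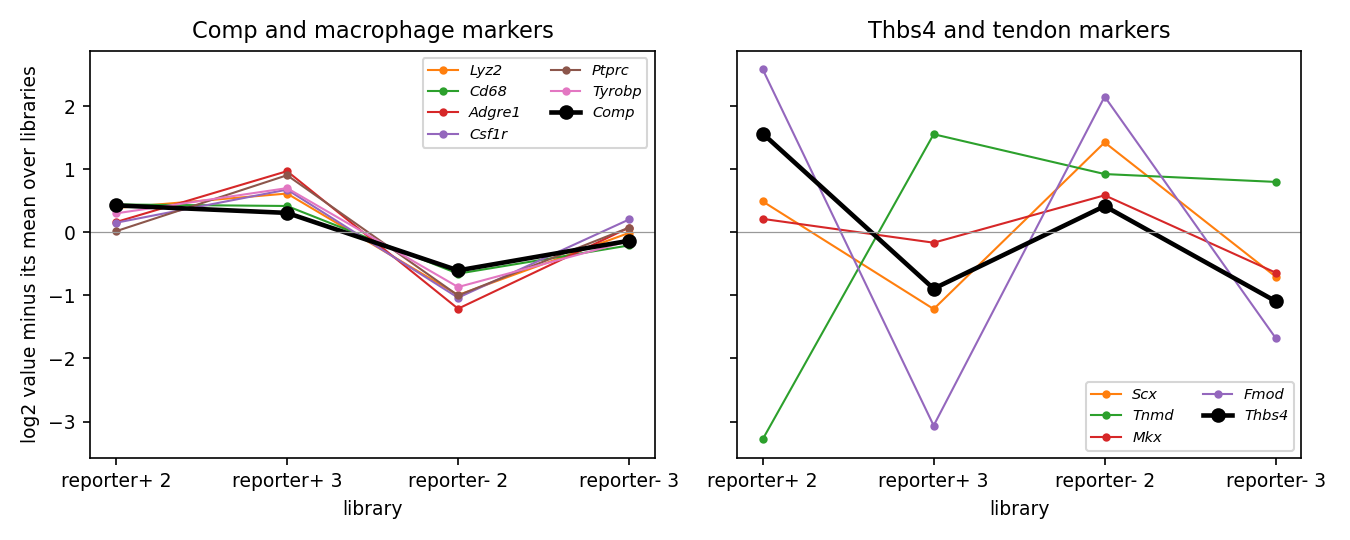
Log2 value of each gene minus its mean over the 4 libraries (y axis) in each library (x axis); thin lines are macrophage markers beside *Comp* (left) and tendon markers beside *Thbs4* (right), and each line joins the values of 1 gene. All 6 macrophage markers are higher in PDGFRα reporter+ than in PDGFRα reporter- cells within each number, like *Comp*, and *Fmod*, *Scx*, *Mkx* and *Thbs4* are higher in number 2, whereas *Tnmd* is lowest in PDGFRα reporter+ library 2.

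Without a block, limma called no gene at all between the populations, and so no receptor gene of the thrombospondins. Of 18 receptor genes, all with a value in each library, 0 were called by limma without a block (0 of all genes, 0%, beside 131, or 0.909%, with an unadjusted p under 0.05, of which 0 were receptors). With the heading number as a block, 29 genes (0.201%) were called, of which 0 were receptors. In that fit 913 of all 14415 genes had an unadjusted limma p under 0.05, among them the receptor genes *Itga6*, *Itga3* and *Itgb3*. The median log2 difference of the receptor genes was 0.05, compared with -0.004 over all genes, and its sign turned when PDGFRα reporter+ library 2 (-0.07) or PDGFRα reporter- library 3 (-0.08) was left out. It was 0.22 and 0.21 when PDGFRα reporter+ library 3 or PDGFRα reporter- library 2 was left out. As for *Thbs3*, the difference between numbers enters these values. *Cd47*, the receptor of the C-terminal domain, had values of 3.61, 3.68, 3.62 and 3.22 in PDGFRα reporter+ libraries 2 and 3 and PDGFRα reporter- libraries 2 and 3. *Lrp1*, the endocytic receptor that clears thrombospondins, had 8.88, 8.56, 8.96 and 8.47, with a difference of 0.01. Of the 18, the PDGFRα reporter+ value was the higher one within both numbers for 3 and the lower one for 4, beside 22.1% and 24.8% of all genes. The lower ones included the integrin chains *Itga6* (-0.56 and -0.63 in numbers 2 and 3), *Itgb3* (-0.54 and -0.61) and *Itga3* (-0.42 and -0.64), whose populations overlapped. *Itga2b*, *Itga4*, *Itgb1* and *Itgb5* had opposite signs in the numbers. *Cd36* had 1.32 in number 2 and -0.15 in number 3. The matrix co-receptor syndecan-4 (*Sdc4*) was the one receptor gene without overlap (2261 of all genes, 15.7%, had none in either direction), higher in PDGFRα reporter+ cells by 0.25 (SE 0.18, limma adjusted p = 1).

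Between the numbers, 9 of the 18 receptor genes were called by limma, 1 higher and 8 lower in number 3, beside 21.3% of all genes. Without the variance trend none of the 36 partner genes called in the 4 lists was called. *Cd36*, the receptor of the type 1 repeats, was higher in number 3 by 1.57 (limma adjusted p = 0.00973), with 0.84 in the PDGFRα reporter+ pair and 2.31 in the other pair. With a pseudocount of 1 its difference was 0.88 and the call was lost (limma adjusted p = 0.054). *Itga3* and *Itga6*, integrin chains that bind the N-terminal domain of thrombospondin-1, were lower in number 3 (-1.84 and -1.41, limma adjusted p = 0.000106 and 0.000692). *Vldlr* was also lower (-1.29, limma adjusted p = 0.000896), and so were the integrin chains *Itgb5* (-0.66), *Itgb3* (-0.83) and *Itgav* (-0.44). *Sirpa*, the partner of CD47 on other cells, had -0.44 and the calcium channel subunit *Cacna2d1*, -0.53. Without a population term, the calls of *Cd36*, *Itgb3*, *Itgav*, *Sirpa* and *Cacna2d1* were lost. With a pseudocount of 1, those of *Itgav*, *Sirpa* and *Cacna2d1* were lost as well (limma adjusted p = 0.0786, 0.0559 and 0.076). That of *Itgav* was also lost among genes averaging 0 or more (limma adjusted p = 0.0524).

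Thrombospondin-1 can activate latent TGF-β by binding its latency peptide. Of 11 genes of TGF-β ligands, latency proteins, receptors and targets, 0 were called between the populations by limma without a block, and 1 had an unadjusted p under 0.05 (0.909% of all genes). This was *Tgfb2*, with values of 3.34 and 3.25 in PDGFRα reporter+ and 2.74 and 2.82 in PDGFRα reporter- libraries and a log2 difference of 0.51 (SE 0.15, limma adjusted p = 1). With the heading number as a block, the limma adjusted p of *Tgfb2* was 0.272. The latency protein gene *Ltbp1* had -0.38 (SE 0.23) and was lower in PDGFRα reporter+ libraries without overlap, as *Thbs1* was. Its difference was -0.62 or -0.13 with PDGFRα reporter+ library 2 or 3 left out. Of the list, 1 gene was higher and 4 were lower without overlap (7.59% and 8.1% of all genes), and its median was -0.16, with a range of -0.24 (without PDGFRα reporter- library 3) to -0.03 (without PDGFRα reporter+ library 3). The difference between numbers enters this range and the values of *Ltbp1* with a library left out. Between the numbers 5 of the 11 were called (21.3% of all genes), none of them without the variance trend: *Tgfbr1* (1.40) and *Ctgf* (1.19) were higher in number 3, and *Ltbp2* (-1.90), *Tgfb1* (-0.88) and *Tgfb3* (-0.76) were lower.

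Matrix partners and proteases moved in both directions. Of 17 genes, 14 had a value in each library, 0 were called between the populations by limma without a block, and 3 had an unadjusted p under 0.05 (0.909% of all genes), all higher in PDGFRα reporter+ cells without overlap. These were *Mmp9* (1.75, SE 0.37), a gelatinase, *Dcn* (1.39, SE 0.39), the proteoglycan decorin, and *Matn4* (0.87, SE 0.31), each with a limma adjusted p = 1. With the heading number as a block, their limma adjusted p was 0.0585, 0.0651 and 0.362. It was 0.629, 0.645 and 0.608 with that block and no variance trend. *Matn4* had values of 0.58, 0.46, -0.56 and -0.14 in PDGFRα reporter+ libraries 2 and 3 and PDGFRα reporter- libraries 2 and 3, so that, like *Comp*, it differed more in number 2 than in number 3. Fibronectin (*Fn1*) was lower in PDGFRα reporter+ libraries without overlap (-0.54, SE 0.46), and *Col2a1* of cartilage collagen was lower within both numbers (-0.46 and -2.55) with overlap. The median of the list was 0.12, and 0.69 or 0.01 with PDGFRα reporter+ library 2 or 3 left out, and -0.10 or 0.50 with PDGFRα reporter- library 2 or 3 left out. Here too the difference between numbers enters the values with a library left out. Between the numbers 7 of the 14 were called (21.3% of all genes), none of them without the variance trend. The proteases *Adamts12* (1.74), *Mmp2* (1.28), *Adamts1* (1.05), *Adamts4* (0.74) and *Adamts5* (0.59) were higher in number 3, and *Col2a1* and *Acan* were lower. The calls of *Adamts4*, *Adamts5* and *Col2a1* were lost without a population term. That of *Adamts4* was also lost with a pseudocount of 1 (0.63, limma adjusted p = 0.0717). Its difference ran from 0.44 to 1.03 with each library left out in turn. *Adamts7*, which like *Adamts12* encodes a protease that cleaves COMP, had 0.51 (limma adjusted p = 0.143).

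**Figure D4:**
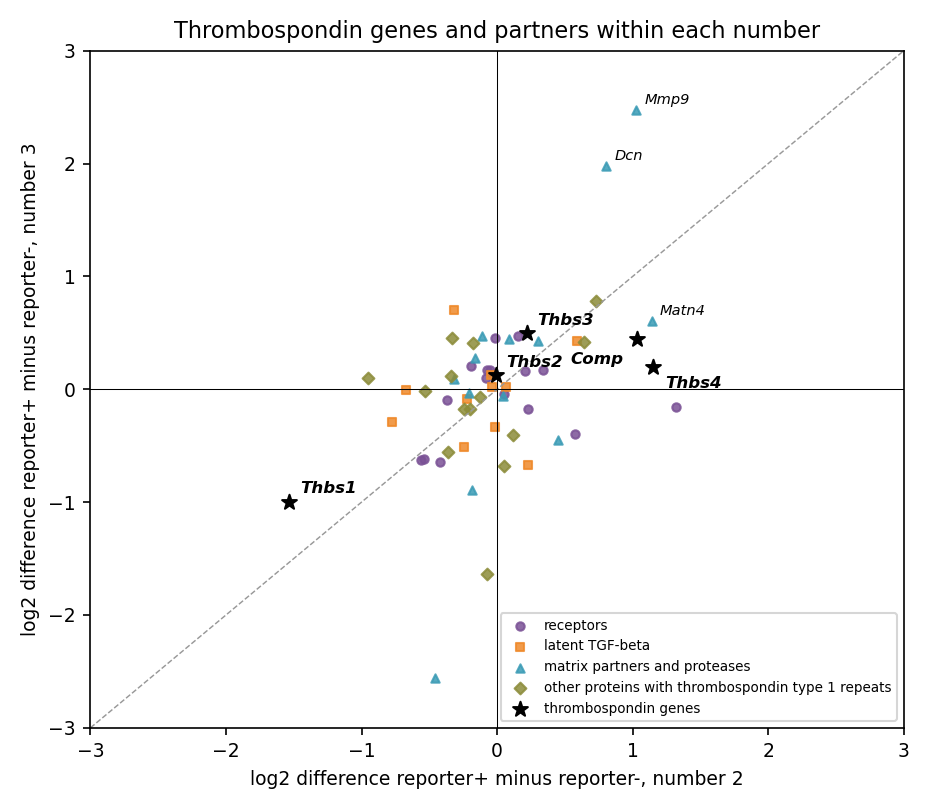
Log2 difference of PDGFRα reporter+ minus PDGFRα reporter- cells in number 2 (x axis) and number 3 (y axis) for 54 partner genes averaging 0 or more (small symbols, by list) and the thrombospondin genes (stars); equal differences lie on the dashed line. *Thbs1* (-1.53 and -0.99) lies apart at the lower left and *Comp* (1.03 and 0.44) beside *Matn4*.

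The 5 genes share no stretch of 50 bases in their GENCODE M21 transcripts, so that a read matching 50 bases or more without error fits 1 member of the family only.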

How the data were processed

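Total RNA of 2 PDGFRα reporter+ and 2 PDGFRα reporter- libraries was sequenced by the authors as stranded paired-end libraries. The submitters' processing notes name bcl2fastq 2.17.1.14, Partek 7.0 and GRCm38.p6, and the aligner, the counting and the annotation are not given in the sources used here. The deposited values are log2 expression, which the authors had quantile normalized, and are blank where no signal was listed. Since they are not counts, no count model was used.

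Differences are means of log2 values, PDGFRα reporter+ minus PDGFRα reporter-, overall and within each heading number. The 14415 genes without a blank were fitted with limma 3.58.1 in R 4.3.3 (lmFit, eBayes with a trend, two-sided), without a block for the populations and with a population term for the numbers. Scripts were tested on simulated data. Positions are from GENCODE M21 (GRCm38), and promoters from RefSeq (GRCm38.p6). The 75 partner genes in 4 lists all had a row, 5 under an older symbol, and 68 had a value in all 4 libraries.

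The family, the lists and the marker genes were chosen with earlier results of these data known. Named partner genes are, per list, up to 3 with the largest difference among those with a mean of at least 0 and no overlap, and genes called in a fit; others are named for their role and were chosen after their values were seen. A gene that this rule names is not reported here. Nothing says that the libraries of a population came from separate animals or cultures, so that p-values measure the spread between these libraries, which may be technical. With 2 libraries against 2, values of single genes were not tested by permutation.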

Additional observations from a re-analysis of the deposited data

Results flagged for a closer look

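Opposite signs were found in 3 comparisons of the thrombospondin genes. Between the populations, *Thbs2* had a log2 difference of -0.008 in number 2 and 0.12 in number 3, which are 0.13 apart. Between the numbers, *Thbs1* had 0.15 in the PDGFRα reporter+ pair and -0.39 in the PDGFRα reporter- pair, 0.54 apart, and *Comp* had -0.12 and 0.47, 0.59 apart. Each value rests on 1 library against 1, and none of these differences was tested.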

How the results depend on the processing

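Between the populations, the log2 differences of *Thbs1* ranged from -1.46 to -1.07 with each library left out in turn and those of *Comp* from 0.50 to 0.97. Populations that do not overlap cannot change direction in this way. Those of *Thbs2* ranged from -0.20 to 0.31, of *Thbs3* from -0.50 to 1.22 and of *Thbs4* from -0.56 to 1.91. Each omission leaves the numbers unequal between the populations, so that the difference between numbers enters these ranges. With a pseudocount of 1 or another centring, the 5 differences moved by less than 1 SD, and filters and variance moderation leave a difference of means as it is. Genes called numbered 0 without a block, 29 with the heading number as a replicate block, and 0 with that block and no variance trend, an alternative chosen after seeing the data, beside 131, 913 and 941 with an unadjusted p under 0.05. Partner genes called numbered 0 in each of these fits and with each library left out. The deviations of libraries with the same number had a correlation of 0.681 across genes, a hint from the data, since no label says what the number pairs.

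Between the numbers, 0 genes were called without a variance trend (3909 with an unadjusted p under 0.05) and 1825 with a pseudocount of 1, compared with 3065. Of the partner genes, 36 were called, with 22 left without a population term and 0 without the trend. *Thbs3* (1.57, limma adjusted p = 0.0616) and *Thbs4* (-1.99, limma adjusted p = 0.0845) were not called without the trend but were called under each other alternative with a test. *Thbs2* was not called without a population term (0.44), without the trend (0.44), with a pseudocount of 1 (0.44) or with another centring (0.43), where its limma adjusted p lay from 0.0504 to 0.191. With each library left out the difference was -0.39 to 0.15 for *Thbs1*, 0.38 to 0.51 for *Thbs2*, 1.43 to 1.71 for *Thbs3*, -2.46 to -1.51 for *Thbs4* and -0.12 to 0.47 for *Comp*, as values without a test. The cause of these changes was not tested. Since depth is unknown, no counting error could be given.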

Other observations

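Type 1 repeats of the kind carried by thrombospondin-1 and -2 are also found in other secreted and membrane proteins. Of 29 such genes, 25 had a value in each library and 0 were called between the populations by limma without a block, with 0 at an unadjusted p under 0.05. With the heading number as a block, 0 were called as well. In that fit some, *Rspo3* and *Unc5b* among them, had an unadjusted limma p under 0.05, beside 913 of all 14415 genes. *Rspo3* (0.53, SE 0.21) and *Rspo1* (0.37), which encode secreted enhancers of Wnt signaling, were higher in PDGFRα reporter+ libraries without overlap, and the netrin receptor gene *Unc5b* was lower (-0.46, SE 0.17). These are 3 of 25 genes, beside 15.7% of all genes without overlap in either direction. The median was -0.14, compared with -0.004 over all genes, but leaving out library 2 of the PDGFRα reporter+ cells gave 0.09, and leaving out that of the PDGFRα reporter- cells gave -0.42. Both of these values also hold the difference between numbers. Between the numbers 15 were called by limma (21.3% of all genes), 8 higher and 7 lower in number 3, and none of them without the variance trend. The matrix gene *Spon1* had the largest difference of the list, 5.27 (limma adjusted p = 0.0012), with log2 values of -6.14 and -5.01 in the libraries numbered 2, PDGFRα reporter+ first, and 0.77 and -1.37 in those numbered 3. On these low values a pseudocount of 1 reduced the difference to 0.92 and the call was lost (limma adjusted p = 0.0743). With that pseudocount the calls of *Thsd4*, *Rspo2*, *Thsd7a*, *Cyr61*, *Cilp* and *Adamtsl5* were lost as well. The values of *Cyr61* were not low (5.19 to 5.82), and its difference stayed about as large (-0.42 without and -0.41 with the pseudocount). *Adamtsl1* (2.99), *Thsd4* (2.66) and *Hmcn1* (2.46) were also higher in number 3, on low values that gave 0.85, 0.16 and 0.20 with a pseudocount of 1, and *Rspo2* (-1.58), *Adamtsl4* (-1.48) and *Nov* (-0.67) were lower.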
